A study of Mus musculus with 10 samples.

Results

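The genes described here are 10 targets and feedback regulators of the WNT pathway, Axin2, Sp5, Lef1, Tcf7, Tcf7l1, Nkd1, Rnf43, Znrf3, Apcdd1 and Cdx1, chosen by name among 25965 features, and all 10 were found. They were measured by RNA-seq in mouse embryonic stem cells (mESCs), from 2 independently derived male lines with a C57BL/6 background. From DNA sequencing, the study reports that a line lost its Y chromosome during derivation, before the culture methods were compared. All groups share 2i/LIF medium, which holds mESCs in the naive state, and derivation in the Keniry2022 conditions before passage 0 (p0). Each line was split at p0 and kept for 10 or 20 passages (p10, p20) by Keniry2022, in which cells float in plates not treated for tissue culture and are passaged daily, or by Mulas2019, in which cells attach to gelatin and are passaged every other day. The 5 groups, p0, Keniry2022 p10, Keniry2022 p20, Mulas2019 p10 and Mulas2019 p20, hold 2 libraries each, 1 per line, and Keniry2022 p20 and Mulas2019 p10 are matched in days of culture. The 4 libraries of a method are therefore 2 lines at 2 passages, and no derivation in Mulas2019 conditions was sampled. The labels write New or Off and Old or On for the methods, and their reading as Keniry2022 and Mulas2019 follows the study's account of its methods.

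In the WNT pathway, a secreted WNT ligand binds a Frizzled receptor and an LRP co-receptor at the cell surface, and this stops a complex of AXIN, APC, CK1 and GSK3 from marking β-catenin for destruction. β-catenin then enters the nucleus and joins the DNA-binding TCF and LEF factors, which otherwise hold their targets silent. Many of the targets act back on the pathway as inhibitors. The 2i medium contains CHIR99021, an inhibitor of GSK3, so in these cells the pathway is held on downstream of the ligands and receptors, and the loss of TCF7L1 repression is part of how this inhibitor maintains naive mESCs. A lower level of an RNA in bulk cultures may mean fewer cells with it or less of it per cell, and these cannot be told apart.

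Libraries held 24053996 to 30236823 reads, as worked out from the table, and 85.9% to 88.7% of them lay in features. Reads of the mESC markers were high in every library, with 17155 to 32624 reads of Pou5f1. Of the fibroblast markers, Col3a1 and Col1a2 had 0 to 1 reads and Postn had 0. Col1a1 had 22 to 55 reads and Thy1 6 to 29, so not all of these markers were absent. The p0 replicate 1 library stood apart from its partner in a way that followed the exon length of a gene. Its log2 level minus that of p0 replicate 2 had a median of 0.43 over 2854 tested features shorter than 2000 nt and of -0.51 over 2201 features of 6000 nt or more. The replicate numbers of Keniry2022 p20 also ran against those of the other groups, since reads of 4 Y-linked genes numbered 6659 in its replicate 1 and 48 in its replicate 2, but 13 to 132 in replicate 1 and 4578 to 8140 in replicate 2 elsewhere. Every group thus pairs a library with few Y-linked reads with a library with many, so its replicates differ in the Y chromosome as well as in line. The part of this difference in the levels of the members was not tested. Values are given with replicate 1 first, and no member is followed along a line.

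The stretch upstream of a start site is where TCF and LEF factors can meet DNA, so RefSeq promoters (GRCm38, the build of the data, mm10) were searched for 4 common versions of the TCF/LEF letters, CTTTG followed by AA, AT, TA or TT, on both strands. Promoters were at hand for 7 members, with 12 start sites. In the 250 bases before the start, Sp5 had 2 matches, 222 and 104 bases upstream, the first of which lies on the opposite strand. A match was also found at 1 of the 4 Lef1 starts, 147 bases upstream, and none in the windows of Axin2, Tcf7, Tcf7l1, Nkd1 and Rnf43. Of all 32851 promoters in the collection, 14.8% held a match in this window. The windows of Sp5 (chr2:70474673-70474922, + strand) and of Axin2 (chr11:108920099-108920348, + strand) are printed because they differ in this respect and because both genes are well-known direct targets. Capitals mark the matches.
Sp5: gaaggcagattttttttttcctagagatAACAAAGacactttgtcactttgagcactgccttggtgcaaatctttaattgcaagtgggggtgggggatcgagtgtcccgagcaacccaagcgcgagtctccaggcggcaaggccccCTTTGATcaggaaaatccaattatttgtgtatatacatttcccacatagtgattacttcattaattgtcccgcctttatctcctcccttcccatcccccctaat
Axin2: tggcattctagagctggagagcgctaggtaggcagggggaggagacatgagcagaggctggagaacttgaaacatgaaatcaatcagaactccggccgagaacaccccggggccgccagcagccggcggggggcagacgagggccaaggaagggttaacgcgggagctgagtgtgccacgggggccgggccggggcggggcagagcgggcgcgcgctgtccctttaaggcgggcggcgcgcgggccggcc

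Expression is given as log2 RPKM (reads divided by exon length and library total, on the log2 scale), which corrects for length and allows levels to be set side by side between genes. The TCF factors were the most abundant members. Tcf7l1 had a median log2 level of 5.07 over the 10 libraries and Tcf7 of 4.10, and Tcf7l1 was the higher in 10 of 10 libraries. They were followed by Cdx1 (3.65), Lef1 (2.94), Axin2 (1.87), Apcdd1 (1.79), Znrf3 (1.49) and Sp5 (0.51), and at the low end by Nkd1 (-1.87) and Rnf43 (-3.39). Neighbours in this order changed places between libraries in 3 cases. Tcf7 was above Cdx1 in 8 of 10 libraries, Axin2 above Apcdd1 in 6 and Apcdd1 above Znrf3 in 9. Tcf7 and Tcf7l1 were also the steadiest, with a span from the lowest to the highest library of 0.27 and 0.30 on the log2 scale. Cdx1 spanned 1.90, a 3.72-fold range, and Sp5 1.67, a 3.17-fold range. Rnf43 had the widest span, 2.33, but rests on 4 to 23 reads a library.

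**Figure D1:**
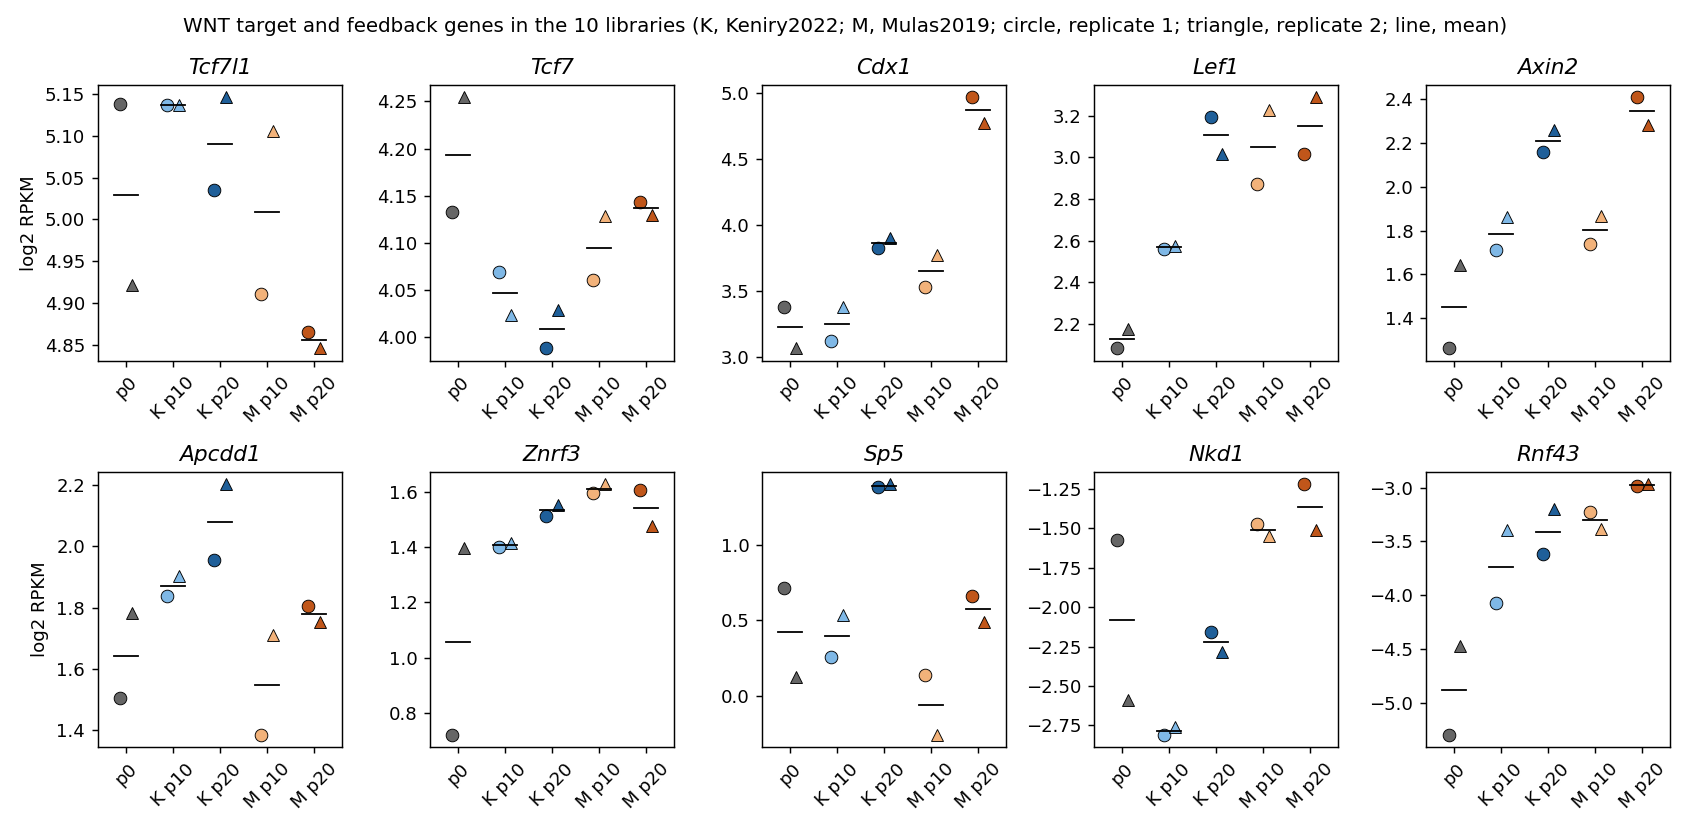
Level of each member in each library, in log2 RPKM, with a separate axis range for each gene; circles are replicate 1, triangles replicate 2 and lines the mean of the 2 libraries. Cdx1 in Mulas2019 p20 (4.96 and 4.77) and Sp5 in Keniry2022 p20 (1.39 and 1.41) sit above all other libraries of the same gene, while the axis of Tcf7 covers only 0.27.

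Among the transcription factors that read the signal, Tcf7l1 (chr6:72626378-72789254, - strand) encodes the factor that acts mainly as a repressor in mESCs. Its log2 levels were 5.14 and 4.92 at p0, 5.14 and 5.14 in Keniry2022 p10, 5.04 and 5.15 in Keniry2022 p20, 4.91 and 5.11 in Mulas2019 p10 and 4.87 and 4.85 in Mulas2019 p20. Mulas2019 p20 was lowest, but the Mulas2019 p10 replicate 2 library reached into the Keniry2022 range, so that the methods overlapped. Over the 4 libraries of each method the mean was 5.11 ± 0.05 (SD, n = 4) in Keniry2022 and 4.93 ± 0.12 in Mulas2019. The antisense feature Gm15401 shares exon sequence with Tcf7l1 and had 84 to 135 reads, against 2424 to 3468 for Tcf7l1, and the strand setting of the counting is not given in the sources used here.

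Tcf7 (chr11:52252371-52283014, - strand), which encodes TCF1, an activating partner of β-catenin and itself a target, had log2 levels of 4.13 and 4.25 at p0, 4.07 and 4.02 in Keniry2022 p10, 3.99 and 4.03 in Keniry2022 p20, 4.06 and 4.13 in Mulas2019 p10 and 4.14 and 4.13 in Mulas2019 p20. All 4 Keniry2022 libraries lay below both p0 libraries, by small amounts. Lef1 (chr3:131110471-131224356, + strand) encodes an activating TCF/LEF factor that is also a widely used target gene. It had 2.08 and 2.17 at p0, 2.56 and 2.58 in Keniry2022 p10, 3.19 and 3.02 in Keniry2022 p20, 2.87 and 3.23 in Mulas2019 p10 and 3.02 and 3.29 in Mulas2019 p20. Every later library was above both p0 libraries, and Keniry2022 p10 lay between p0 and the rest.

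Of the feedback inhibitors, Axin2 (chr11:108920349-108950783, + strand) encodes a scaffold of the destruction complex and is the most general readout of the pathway. Log2 levels of 1.26 and 1.64 at p0 were followed by 1.71 and 1.86 in Keniry2022 p10, 2.16 and 2.26 in Keniry2022 p20, 1.74 and 1.87 in Mulas2019 p10 and 2.41 and 2.28 in Mulas2019 p20. The libraries fell into layers by passage, with both p0 libraries below all p10 libraries and all p10 libraries below all p20 libraries, whatever the method. The antisense feature Gm11670, which shares exon sequence with Axin2, had 15 to 52 reads, against 318 to 809 for Axin2.

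Znrf3 (chr11:5276324-5444847, - strand) and Rnf43 (chr11:87662722-87735539, + strand) encode membrane ubiquitin ligases that remove Frizzled receptors from the cell surface. Znrf3 had log2 levels of 0.72 and 1.39 at p0, 1.40 and 1.42 in Keniry2022 p10, 1.51 and 1.55 in Keniry2022 p20, 1.59 and 1.63 in Mulas2019 p10 and 1.61 and 1.47 in Mulas2019 p20. Here p0 replicate 1 was the low library and p0 replicate 2 was within 0.01 of the lowest later library. For Rnf43 the reads numbered 4 and 8 at p0, 11 and 18 in Keniry2022 p10, 15 and 21 in Keniry2022 p20, 17 and 19 in Mulas2019 p10 and 23 and 23 in Mulas2019 p20. Both p0 libraries were again lowest, at counts where counting error is large.

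Nkd1 (chr8:88521344-88594887, + strand) encodes an inhibitor that binds Dishevelled. It had 36 and 20 reads at p0, 18 and 19 in Keniry2022 p10, 28 and 27 in Keniry2022 p20, 39 and 46 in Mulas2019 p10 and 53 and 43 in Mulas2019 p20. The 4 Keniry2022 libraries, at log2 levels of -2.81 to -2.16, lay below the 4 Mulas2019 libraries, at -1.55 to -1.22, without overlap. The p0 libraries lay apart, replicate 2 within the Keniry2022 range and replicate 1 just under the Mulas2019 range. Apcdd1 (chr18:62922327-62953195, + strand), which encodes a membrane-bound inhibitor of WNT signalling, ran the other way. It had log2 levels of 1.50 and 1.78 at p0, 1.84 and 1.90 in Keniry2022 p10, 1.95 and 2.20 in Keniry2022 p20, 1.38 and 1.71 in Mulas2019 p10 and 1.81 and 1.75 in Mulas2019 p20. The lowest Keniry2022 library (1.84) was just above the highest Mulas2019 library (1.81). The exon length of Apcdd1 worked out from the deposited values is 2799 nt, against 12884 nt in GENCODE. If that length holds, its level is per the shorter model.

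The target transcription factors were the most variable of the well-measured members. Sp5 (chr2:70474923-70477729, + strand), a direct target that encodes an SP-family factor and limits other targets, had log2 levels of 0.72 and 0.13 at p0, 0.26 and 0.54 in Keniry2022 p10, 1.39 and 1.41 in Keniry2022 p20, 0.14 and -0.26 in Mulas2019 p10 and 0.66 and 0.49 in Mulas2019 p20. Keniry2022 p20 held the 2 highest libraries, with 154 and 164 reads against 53 to 92 in the rest. Cdx1 (chr18:61018862-61036199, - strand), which encodes a caudal-type homeobox factor of the posterior embryo and gut, had 3.38 and 3.07 at p0, 3.12 and 3.38 in Keniry2022 p10, 3.83 and 3.90 in Keniry2022 p20, 3.53 and 3.77 in Mulas2019 p10 and 4.96 and 4.77 in Mulas2019 p20. Mulas2019 p20 stood above every other library, with 1513 and 1313 reads against 397 to 772.

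Genes of other cell types were measured beside these factors. The summed reads of 7 markers of primitive streak and mesendoderm were 17.7 to 18.1 CPM (counts scaled to the library total) in Mulas2019 p20, where Cdx1 was highest, against 13.8 to 17.1 in the other groups kept in culture and 18.8 to 25.8 at p0. Of the 7, Mesp1 had 0 to 2 reads, Foxa2 0 to 8, T 5 to 28, Mixl1 11 to 23, Evx1 6 to 47, Gsc 100 to 389 and Eomes 162 to 345. They did not move together. In Mulas2019 p20 T (14 and 28 reads) and Eomes (345 and 325) had their highest counts. Evx1 had 7 and 6 reads in Mulas2019 p20 and 7 and 9 in Mulas2019 p10, against 21 to 47 at p0 and in Keniry2022. Gsc had 102 and 112 reads in Mulas2019 p20 and 100 and 159 in Mulas2019 p10, against 135 to 389 at p0 and in Keniry2022. Cdx2, a relative of Cdx1, had 2 to 30 reads, with 28 and 24 in Mulas2019 p20 and 2 and 8 in Mulas2019 p10. It had 16 and 30 in Keniry2022 p20, 9 and 14 in Keniry2022 p10 and 15 and 8 at p0, so its highest count was in Keniry2022 p20. The part of such cells in the level of Cdx1 was not tested.

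To ask how culture method bears on these genes, both passages were first pooled, as 4 Keniry2022 against 4 Mulas2019 libraries. The filter on low values (log2 level above 0 in at least 50% of libraries) was passed by 8 members, and Nkd1 and Rnf43 were too low. At an adjusted p under 0.05 (limma, two-sided, Benjamini-Hochberg over all features), 51.5% of the 11654 tested features were called, 25.9% higher in Keniry2022 and 25.5% lower. Of the 8 tested members 2 were called, a smaller share than among all features, and both were higher in Keniry2022. Tcf7l1 was higher by 0.18 on the log2 scale (SE 0.06, 95% interval 0.05 to 0.31, adjusted p = 0.0236), which is 1.13-fold, and Apcdd1 by 0.31 (SE 0.11, 0.07 to 0.55, adjusted p = 0.0357), or 1.24-fold.

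The larger differences did not pass. Cdx1 differed by -0.70 (95% interval -1.39 to -0.01, adjusted p = 0.083) and Sp5 by 0.64 (0.00 to 1.28, adjusted p = 0.0863), and the passages of 1 method lay far apart in these genes. With passage as a term in the model both passed (limma), with adjusted p = 0.00117 for Cdx1 and 0.00283 for Sp5. That fit called 4 of 8 tested members, against 54.9% of all features. Tcf7 differed by -0.09 (adjusted p = 0.0731) and Lef1 by -0.26 (adjusted p = 0.16). For Axin2 the difference was -0.08 with a 95% interval from -0.44 to 0.29, and for Znrf3 -0.11 with an interval from -0.26 to 0.05, so differences of up to about these bounds were not excluded.

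**Figure D2:**
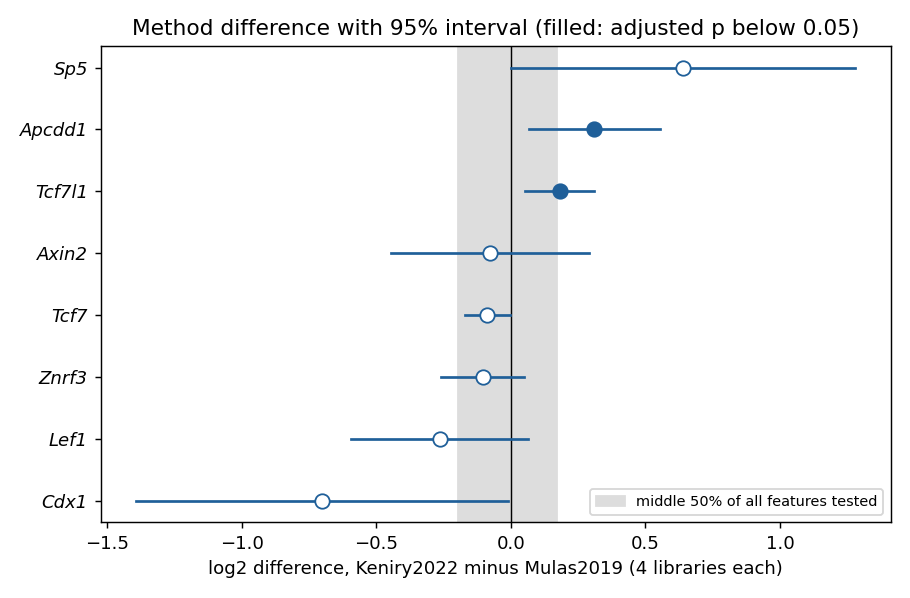
Log2 difference of Keniry2022 minus Mulas2019 for the 8 tested members, with points for the estimate, bars for the 95% interval and filled points for an adjusted p under 0.05; the grey band spans the middle 50% of all features tested (-0.20 to 0.17). Tcf7l1 and Apcdd1 are filled, and the intervals of Sp5 and Cdx1 are the widest.

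Both calls were close to the threshold. Tcf7l1 lost its call on leaving out either library of Keniry2022 p10 (adjusted p = 0.057 and 0.0577), Keniry2022 p20 replicate 2 (0.0576) or either library of Mulas2019 p20 (0.063 and 0.0587), with differences of 0.15 to 0.17, and under quantile normalisation (difference 0.10, adjusted p = 0.191). Apcdd1 lost it without Keniry2022 p10 replicate 2 (0.0526), either library of Keniry2022 p20 (0.0583 and 0.098) or either library of Mulas2019 p10 (0.0749 and 0.0565), with differences of 0.22 to 0.36 over the 8 libraries left out in turn, and with no filter on low values (difference 0.31, adjusted p = 0.0588). With p0 in the fit (10 libraries, 5 groups), which called 19.2% of features between the methods, the 2 members called were Cdx1 (adjusted p = 0.00523) and Sp5 (0.0326), and Apcdd1 (0.085) and Tcf7l1 (0.119) were not.

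Nkd1, which fell under the filter on low values, was lower in Keniry2022 by 1.07 on the log2 scale when no filter was applied (SE 0.21, adjusted p = 0.00481 by limma), or 2.09-fold. The fit without a filter called 35.9% of all features. Rnf43 differed by -0.43 in that fit (adjusted p = 0.208). Without overlap between the methods, Apcdd1 was higher and Nkd1 lower in Keniry2022, 1 of 10 members each way. These are smaller shares than the 23.2% and 22.9% among features that passed the filter, which Nkd1 did not.

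At p10 alone, with 2 libraries a group and all 5 groups in the model, no member was called, against 8.53% of 11561 features (limma), and voom called no member. At an unadjusted p under 0.05 there were 2 of 8 members, about the share of all features (27%). Lef1 had the smallest adjusted p, 0.0798, with a log2 difference of -0.48 (95% interval -0.82 to -0.15). At p20, 2.15% of features were called and 1 member, Cdx1. Keniry2022 minus Mulas2019 was -1.0 on the log2 scale (SE 0.15, 95% interval -1.35 to -0.66, adjusted p = 0.0228), a 2.00-fold lower level in Keniry2022, against 1.54% of features called lower. Sp5 was 0.82 higher at p20 (0.28 to 1.36, adjusted p = 0.114). The spread in this model was widened by the p0 libraries. In a model of the 4 later groups, 48.3% of features were called at p10 and 36.7% at p20, and of the members Lef1 (adjusted p = 0.015) and Cdx1 (0.0169) were called at p10, both lower in Keniry2022. At p20 the members called in this model were Cdx1 (0.00092), Sp5 (0.00781) and Tcf7l1 (0.0266).

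The call of Cdx1 at p20 was lost on leaving out any 1 of the 8 later libraries, in which the background fell to between 0.00867% and 0.244% of features. Its difference stayed between -0.91 (without Mulas2019 p20 replicate 1, adjusted p = 0.243) and -1.10 (without Mulas2019 p20 replicate 2, adjusted p = 0.143). For the 6 others, the adjusted p was 0.161 and 0.156 without replicate 1 and 2 of Keniry2022 p20, 0.0611 and 0.058 without those of Keniry2022 p10, and 0.0578 and 0.0551 without those of Mulas2019 p10.

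Passages take longer in Mulas2019, so Keniry2022 p20 was also set against Mulas2019 p10, which had spent as many days in culture. Here 6.43% of features were called, with 2.84% of all features higher in Keniry2022, and of the members Sp5 was called. It was higher in Keniry2022 by 1.46 on the log2 scale (SE 0.23, 95% interval 0.92 to 2.00, adjusted p = 0.0188), or 2.75-fold. Apcdd1 followed with a difference of 0.53 (0.17 to 0.89, adjusted p = 0.0859) and Axin2 with 0.41 (0.07 to 0.74, adjusted p = 0.143). Cdx1, the member that differed at p20, differed by 0.22 here (-0.13 to 0.56, adjusted p = 0.428). Sp5 lost its call without either library of Keniry2022 p20 (adjusted p = 0.121 and 0.132), either library of Mulas2019 p10 (0.141 and 0.106) or Mulas2019 p20 replicate 1 (0.0508). Without the p0 groups in the model 43.4% of features were called, with Sp5 (0.000705), Axin2 (0.00827) and Apcdd1 (0.0102) among them.

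Set against the starting cells, most differences of the members were positive. Axin2, Lef1, Rnf43 and Znrf3 were higher in all 8 later libraries than in both p0 libraries, 4 of 10 members against 12.9% of features. No member was lower in all 8, against 13.2%. These 2 shares are of features that passed the filter on low values, which Rnf43 and Nkd1 did not. In Mulas2019 p10, 33% of features were called (15.7% higher) and 1 member, Lef1, which rose by 0.92 on the log2 scale (SE 0.15, 95% interval 0.58 to 1.26, adjusted p = 0.0102), or 1.89-fold. In Mulas2019 p20, 29.3% of features were called (14.7% higher) and 3 of 8 tested members, all higher. Cdx1 rose by 1.64 (SE 0.15, 1.30 to 1.99, adjusted p = 0.00446), or 3.12-fold, Lef1 by 1.02 (0.69 to 1.36, adjusted p = 0.0102), or 2.03-fold, and Axin2 by 0.89 (0.56 to 1.23, adjusted p = 0.0124), or 1.86-fold.

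Keniry2022 was compared with the same p0 libraries, so its differences share their error with those above. Only 0.199% of features were called at p10 and 0.199% at p20, and no member at either passage, by limma or by voom. At an unadjusted p under 0.05 there were 1 of 8 tested members at p10, against 24.7% of features, and 7 at p20, against 28%. The values at p20 were 0.98 for Lef1 (95% interval 0.64 to 1.31, adjusted p = 0.0649), 0.97 for Sp5 (0.43 to 1.51, adjusted p = 0.113), 0.76 for Axin2 (0.42 to 1.09, adjusted p = 0.091) and 0.64 for Cdx1 (0.30 to 0.98, adjusted p = 0.11). The intervals of Lef1 and Axin2 largely coincide with those of Mulas2019 p20. Tcf7l1 differed from p0 by 0.06 in Keniry2022 p20 (-0.18 to 0.30) and by -0.17 in Mulas2019 p20 (-0.41 to 0.07), and Tcf7 by -0.19 and -0.06. Sp5 differed by -0.48 in Mulas2019 p10 (adjusted p = 0.134) and 0.15 in Mulas2019 p20 (adjusted p = 0.616).

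**Figure D3:**
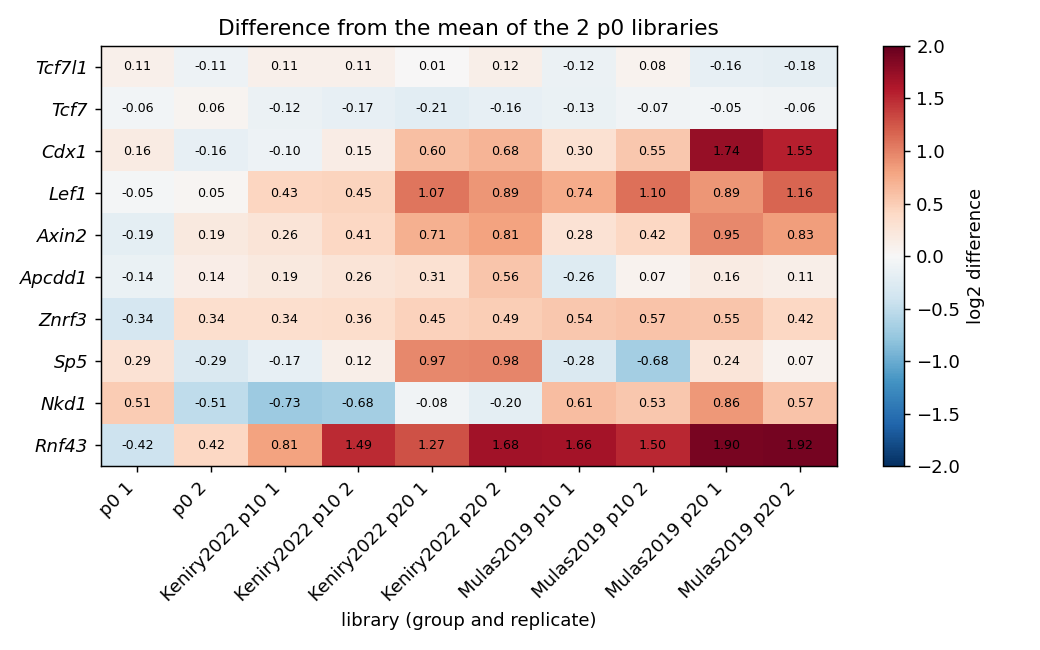
Log2 difference of every library from the mean of the 2 p0 libraries for each member, ordered by level; red is higher and blue lower, with the value written in each cell. Lef1 and Axin2 are red in all 8 later libraries, Cdx1 is deepest in Mulas2019 p20 (1.74 and 1.55), and Sp5 reaches 0.97 and 0.98 in Keniry2022 p20.

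Exon length moved with these differences. The mean of the 8 later libraries minus that of p0 had a median of -0.29 over features under 2000 nt, -0.06 from 2000 to under 4000 nt, 0.14 from 4000 to under 6000 nt and 0.37 at 6000 nt or more. The 4 members that were higher in every later library are the 4 longest, Lef1 (8654 nt), Znrf3 (7893 nt), Rnf43 (6558 nt) and Axin2 (5506 nt). With p0 replicate 2 alone as the start, the medians shrank to between -0.10 and 0.11. In that comparison Lef1 kept a difference of 0.79 and Axin2 of 0.39, whereas Znrf3 went from 0.46 to 0.13, close to the median of its length class. Cdx1 is a short gene (1750 nt), and its difference was 0.68 with both p0 libraries and 0.84 with p0 replicate 2 alone, against medians of -0.29 and -0.10 for its class.

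**Figure D4:**
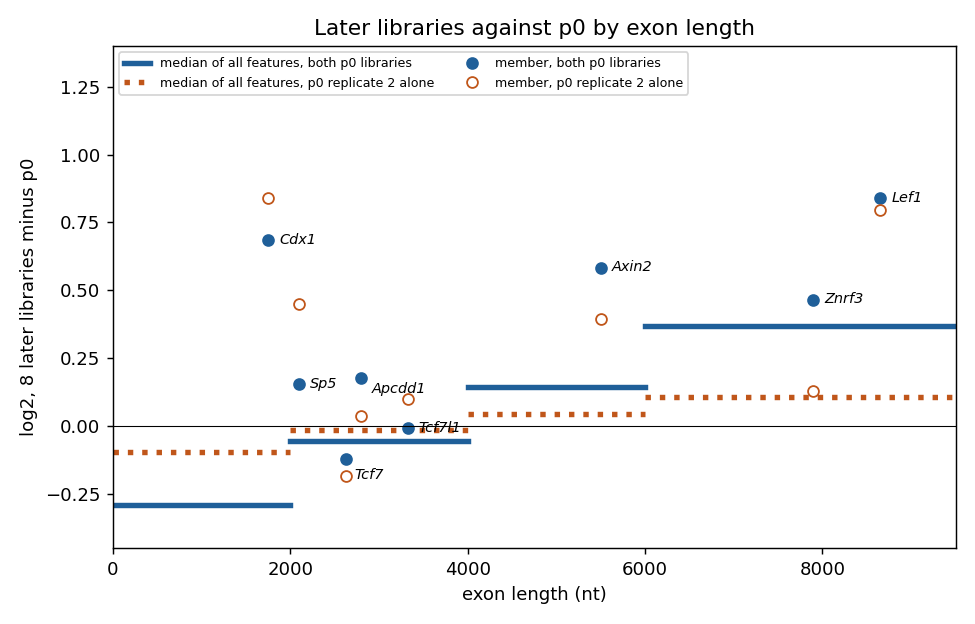
Mean log2 level of the 8 later libraries minus p0, against exon length in nt, for the 8 tested members (points) and the median of all features in 4 length classes (lines; the last class has no upper bound). Filled points and solid lines use both p0 libraries, open points and dotted lines p0 replicate 2 alone; Lef1, Axin2 and Cdx1 lie above the lines in both, and Znrf3 reaches the dotted line.

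Without p0 replicate 1 the members called in Mulas2019 p20 were Cdx1 (1.80, adjusted p = 0.000564), Lef1 (0.98, 0.00283) and Axin2 (0.70, 0.00272), and in Mulas2019 p10 Lef1 (0.87, 0.0039) and Cdx1 (0.58, 0.0101). These are 3 and 2 of 8 tested members, against 37.5% and 40.5% of features, so no larger a share than among all features. In Keniry2022 p20 4 members passed, Lef1 (0.93, adjusted p = 0.0269), Cdx1 (0.80, 0.0266), Sp5 (1.27, 0.0266) and Axin2 (0.57, 0.0345), against 4.61% of features. Without p0 replicate 2, which leaves the library that stands apart as the only p0 library, 66.5% of features were called in Keniry2022 p20 and 6 members, and 64.3% in Keniry2022 p10 with 3 members. Each of these fits leaves p0 as 1 library of 1 line, set against later libraries of both lines, so passage and line cannot be told apart in p0. The calls in Mulas2019 were lost with single libraries left out. Lef1 at p10 had adjusted p = 0.0762 and 0.0705 without replicate 1 and 2 of that group. At p20, leaving out replicate 1 and 2 in turn gave 0.0878 and 0.0854 for Lef1 and 0.107 and 0.0854 for Axin2, and Cdx1 lost its call without replicate 1 (1.55, adjusted p = 0.0715).

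Between p10 and p20 no feature passed the threshold in either method (0%, with 289 features in Keniry2022 and 772 in Mulas2019 at an unadjusted p under 0.05, limma). Among these were 4 of 8 tested members in Keniry2022, against 2.5% of features, and 3 in Mulas2019, against 6.68%, and voom called no member. In Keniry2022, 7 of 10 members were higher at p20 without overlap between the passages, Axin2, Sp5, Lef1, Nkd1, Znrf3, Apcdd1 and Cdx1, against 22.7% of features, and none was lower, against 22.8%. The differences were 1.0 for Sp5 (95% interval 0.46 to 1.54), 0.61 for Cdx1 (0.27 to 0.96), 0.54 for Lef1 (0.20 to 0.88) and 0.42 for Axin2 (0.09 to 0.76), each with an adjusted p of 1. In Mulas2019, 6 members were higher at p20 without overlap, Axin2, Sp5, Tcf7, Rnf43, Apcdd1 and Cdx1, against 27.7% of features, and Tcf7l1 was lower, against 25.5%. Cdx1 differed there by 1.22 (0.87 to 1.56, adjusted p = 0.143), Sp5 by 0.64 (0.10 to 1.18, adjusted p = 0.626) and Axin2 by 0.54 (0.21 to 0.88, adjusted p = 0.473). These intervals are not adjusted for the number of features. The shares without overlap are of features that passed the filter on low values, which Nkd1 and Rnf43 did not.

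A model of the 4 later groups, which leaves out the p0 libraries, called 2.47% of features between the passages of Mulas2019, with Cdx1 (adjusted p = 0.00969) and Axin2 (0.0369) among them. Whether the passage difference itself depended on the method was tested as an interaction. It was called for no feature (0%, with 405 at an unadjusted p under 0.05, limma), and for Cdx1 it was -0.60 (95% interval -1.09 to -0.12, adjusted p = 1). Axin2, Sp5, Apcdd1 and Cdx1, 4 of 10 members, were higher at p20 than at p10 without overlap in both methods. Of the features that passed the filter on low values, as these 4 did, 7.57% were.

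The rest of the pathway was read from lists of genes by role, in the pooled comparison that called 25.9% of all features higher in Keniry2022 and 25.5% lower. None of 19 WNT ligand genes passed the filter. The highest counts were 46 to 113 reads for Wnt7b and 28 to 104 for Wnt5b, while Wnt1 and Wnt2 had 0 reads in all libraries. Neither of 2 genes of WNT secretion was called between the methods, and Wls, which carries WNT proteins to the surface, was nearest, with -0.41 (adjusted p = 0.0616). Among receptors and co-receptors, 2 of 14 tested genes were higher and 8 lower in Keniry2022, with a median of -0.29 against 0.00 for all features. The co-receptor gene Lrp6 was lower by 0.41 on the log2 scale (adjusted p = 0.000198), at 3.11 ± 0.05 (SD, n = 4) in Keniry2022 and 3.52 ± 0.08 in Mulas2019. Ror2 (-0.50, adjusted p = 0.000386) and Fzd6 (-0.51, adjusted p = 0.00132), both receptors of WNT ligands, were lower as well.

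For the destruction complex and its regulators, 1 of 16 tested genes was higher and 6 were lower in Keniry2022, with a median of -0.08. The higher gene was Ctnnb1, which encodes β-catenin (0.20, adjusted p = 0.00039), at 7.67 ± 0.03 in Keniry2022 and 7.47 ± 0.01 in Mulas2019. Csnk1e, a casein kinase gene (-0.34, adjusted p = 0.00096), and Tnks, whose product marks AXIN for degradation (-0.23, adjusted p = 0.00314), were lower. In the list of nuclear partners of TCF and β-catenin, 2 of 14 were higher and 4 lower, a smaller share called than among all features (51.5%). Hdac2, of the co-repressor complexes (0.42, adjusted p = 4.73e-05), and Tle4, a Groucho co-repressor (0.30, adjusted p = 0.000357), were higher, and Bcl9, a co-activator of β-catenin (-0.48, adjusted p = 0.000469), was lower. In the list of secreted inhibitors, Kremen co-receptors and R-spondins, 5 genes were tested, none of them an R-spondin. Notum, which inactivates WNT proteins (0.42, adjusted p = 0.0133), was higher and Kremen1, a co-receptor of DKK inhibitors (-0.34, adjusted p = 0.00332), lower.

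Targets from outside the members were mixed. Of 6 tested, 3 were higher and 1 lower in Keniry2022. Myc, a growth regulator with many inputs besides WNT, was 1.95 higher (adjusted p = 0.000426), at 1.03 ± 0.52 against -0.91 ± 0.46, on 29 to 211 reads. Bambi, which encodes a TGF-β pseudoreceptor, was 0.33 higher (adjusted p = 0.00539), and Jun, an immediate early gene, differed by -0.80 (adjusted p = 0.000234). T, Cdx2, Cdx4, Sp8 and Mixl1 were too low to test. Of 6 pluripotency genes known to be repressed by TCF7L1, 3 were higher and none lower, a share called close to that of all features (51.5%). Nr0b1 differed by 0.86 (adjusted p = 3.82e-05), Nanog by 0.18 (adjusted p = 0.0162) and Klf2 by 0.13 (adjusted p = 0.0492), while Tcf7l1 itself was 0.18 higher.

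Over all lists, the 20 genes lower in Keniry2022 had a median exon length of 6425 nt and the 12 higher genes of 3595 nt. The receptors and co-receptors ran the other way, with 4180 nt for the 8 lower genes and 6398 nt for the 2 higher. The other lists with calls in both directions ran as the whole did. Length moved with method over the whole table too, with a median Keniry2022 minus Mulas2019 difference of 0.12 for features under 2000 nt and -0.12 for those of 6000 nt or more. Its part in the list counts and in the calls of members was not tested. Of the 8 tested members, 6 had a difference of the same sign as the median of their length class. The share of all features with such agreement was not worked out. Most features of a class share the sign of its median by construction, so the count is not a result about the members. Both called members, Tcf7l1 (3323 nt, 0.18) and Apcdd1 (2799 nt, 0.31), were higher like their class, as was Sp5 (2100 nt, 0.64). The median of this class, 0.03, was small beside these differences. Lef1, Znrf3 and Axin2 were lower, like the longer classes. The 2 of opposite sign were Tcf7 (2625 nt) and Cdx1 (1750 nt).

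**Figure D5:**
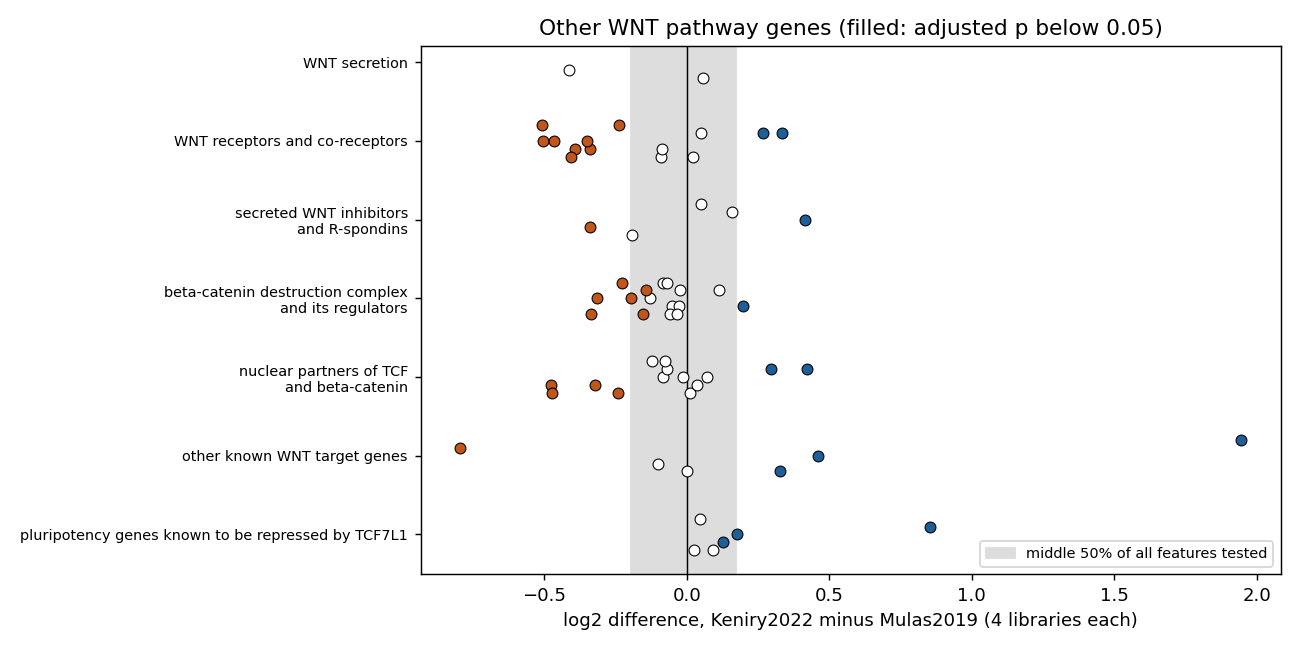
Log2 difference of Keniry2022 minus Mulas2019 for the tested genes of 7 lists of other WNT pathway genes, with 1 point a gene, blue for genes called higher, orange for genes called lower and white for the rest; vertical offsets within a list only separate the points. The receptors lie mostly on the left, and Myc (1.95) is farthest to the right.

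Across the 10 libraries, members shared parts of their profiles. As a description only, since the libraries share lines, depth and the p0 samples, Pearson's r (n = 10) was 0.81 between Axin2 and Lef1, 0.81 between Axin2 and Cdx1, and 0.85 between Rnf43 and each of Axin2 and Lef1. Sp5 had an r of 0.61 with Apcdd1 and of 0.17 with Lef1. Tcf7l1 had negative values with 7 of the other members, down to -0.57 with Cdx1. The features most like each member were sought among 6196 features with a mean log2 level of at least 3. For Axin2 they were Ccnf (0.96) and Ephx2 (0.95), for Lef1 Ampd2 (0.97) and D230025D16Rik (0.96), and for Sp5 Agpat5 (0.88) and Rcl1 (0.85). Cdx1 was closest to Lepre1 (0.95) and Cdkn1a (0.93), Apcdd1 to Srpr (0.96) and Cast (0.92), Tcf7 to Clk3 (0.87) and Asah1 (0.86), and Tcf7l1 to Zbtb45 (0.94) and Dyrk3 (0.93). Znrf3 was closest to Chd4 (0.99) and Ccdc88c (0.99), which shared its low value in p0 replicate 1, at 5.20 against 6.11 in p0 replicate 2 for Chd4 and 2.55 against 3.92 for Ccdc88c.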

How the data were processed

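The members and lists were chosen with earlier results of these data known. Reads were single-end and, by the study's methods, trimmed, mapped to mm10 by HISAT2 and quantified in SeqMonk. TopHat2 2.0.12 and bcl2fastq stand in the submitters' processing notes, without HISAT2. Which annotation, strand setting and multi-mapping rule applied is not given in the sources used here. Values in the deposited table are log2 RPKM with 0 reads entered as 0.9 reads, although it is named log CPM. Library totals and reads were worked out from these floors (99.8% of values whole within 0.1 reads), with exon lengths that were in part set by this search. Features were matched to GENCODE vM21 (22617 of 25965).

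Tests used limma 3.58.1 in R 4.3.3 on the deposited log2 values, with an intensity trend, two-sided, Benjamini-Hochberg over all features and a threshold of 0.05, on features with a log2 value above 0 in at least 50% of the libraries fitted. The pooled fit held 8 libraries without a block, and all other contrasts came from 1 model of 10 libraries and 5 groups. p-values measure the spread between libraries of 2 lines. All 10 members were named, and from other lists up to 3 called genes with the smallest p, or the 1 with the smallest p where none was called. Alternatives included voom on the recovered reads, other normalisations and filters, library weights and leaving out each library. Reads are not independent molecules.

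Deviations of same-numbered libraries from their group means correlated at 0.17 to 0.63 among p0, Keniry2022 p10, Mulas2019 p10 and Mulas2019 p20, and at -0.70 to -0.12 with Keniry2022 p20, so the block was also fitted with the numbers of that group crossed.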

Additional observations from a re-analysis of the deposited data

Results flagged for a closer look

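Tcf7l1 in the Keniry2022 p20 replicate 1 library had a log2 level of 5.04, and its gap to the next of the 4 Keniry2022 libraries was 0.917 of their whole range, above the Dixon limit of 0.829 for 4 samples. Chance alone marks about 1 in 20 groups in this way, and 20 groups were looked at.

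Nkd1 was lower than p0 in both Keniry2022 p10 libraries, with a mean difference of -0.70 on the log2 scale, and higher than p0 in both Mulas2019 p10 libraries, with 0.57. Since both share p0, the gap between these changes is the Keniry2022 p10 minus Mulas2019 p10 difference, which was -1.27 without the filter on low values (limma, adjusted p = 0.0747). It rests on 18 to 46 reads a library.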

How the results depend on the processing

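Counts are of members called. For the pooled comparison, 2 members became 1 with the stricter filter (54.3% of features called) and 3 with quantile normalisation (46.0%). They became 3 with library quality weights (54.5%) and 4 with passage as a term (54.9%). On leaving out a library they became 0 to 3. For Keniry2022 against Mulas2019 at p10, 0 became 4 with library quality weights and 2 without p0 in the model (0 to 2 leaving out a library), and at p20, 1 became 3 with weights and 3 without p0 (0 to 3). For the groups matched in days, 1 became 2 with quantile normalisation (6.66% of features called) and 0 with the stricter filter (4.15%). It became 3 with weights and 3 without p0 (0 to 3). Against p0, Keniry2022 p10 gave 0 to 3 and Keniry2022 p20 0 to 6 on leaving out a library. Mulas2019 p10 moved from 1 to 2 with no filter (17.8% of features called) and 0 with weights (0 to 4). Mulas2019 p20 moved from 3 to 0 with weights (0 to 5). Between passages, weights gave 2 in each method, against 0.346% of features in Keniry2022 and 4.43% in Mulas2019. The model without p0 gave 2 in Mulas2019 (0 to 2 leaving out a library), against 2.47% of features. The interaction stayed at 0. The replicate block, as numbered or crossed, changed none of these counts, with 2 members in the pooled fit. Where a library was left out of a group of 2, its partner was assumed to vary like the other groups. The cause of these changes was not tested. Over all features, weights raised the share called to 50.9% at p10, 35.3% at p20 and 40.0% for the groups matched in days, and lowered it to 0% in both Mulas2019 groups against p0. The block lowered it at p20 from 2.15% to 1.25%, or 1.35% when crossed, and the stricter filter to 1.19%. In each Keniry2022 group against p0, 23 features were called by limma and 0 by voom.

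The pooled difference turned in sign for Axin2 under quantile normalisation (0.0175) and without Keniry2022 p10 replicate 1 (0.0197) or Mulas2019 p20 replicate 1, with a range of -0.189 to 0.0347 on leaving out a library, and for Znrf3 under quantile normalisation (0.0306). The pooled differences of the other 6 tested members kept their sign under every alternative run. Depth limits Nkd1 and Rnf43, with at most 53 and 23 reads a library.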
